A study of Mus musculus with 21 samples.

Results

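Timp2, 9 genes of its inhibitor and metalloproteinase network, and their levels in the mouse hippocampus after 2 manipulations of CD8+ T cells are described here. The 10 genes are the inhibitors Timp2, Timp3, Timp4 and Reck, the membrane-type matrix metalloproteinases Mmp14, Mmp15, Mmp16, Mmp17 and Mmp24, and the procollagen proteinase Adamts2. They were chosen by name on measured values of the depletion experiment, and make up 10 of the 24411 genes in each deposited table. Those values were the normalized counts and the deposited fold changes, in which Timp2 and Adamts2 were already known to be lower with the antibody. The differences of the 10 genes between antibody and IgG2b are therefore given as a description, with no test. Their differences are tested in the transfer experiment, which used other mice, and their covariation is tested on deviations from group means, in which the contrasts are removed.

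Male wild-type mice were perfused and RNA from the hippocampus of 1 hemisphere was sequenced. The transfer experiment used B6.SJL-Ptprca Pepcb/BoyJ hosts aged 4 months. All hosts were first depleted of resident CD8+ cells with a CD8a antibody (days -11 and -7). CD8+ T cells from spleen and blood of C57BL/6J donors were then injected into the tail vein. Donors were 22 to 28 months old for 5 hosts, called aged T mice, and 3 to 4 months old for 6 hosts, called young T mice. The depletion experiment used 22- to 24-month-old animals, 5 treated every 4 days with the CD8a antibody and 5 with rat IgG2b, its isotype control. Both transfer groups carried the antibody treatment, so that comparison concerns the age of the transferred cells, whereas the depletion comparison concerns the antibody itself in aged mice. The antibody acts on the whole animal, and the transferred cells came from spleen and blood, not from brain. The labels name each library separately without saying how the samples were obtained beyond this, so p-values measure the spread between these libraries.

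Tissue inhibitors of metalloproteinases are small secreted proteins that block the catalytic site of matrix metalloproteinases and of some ADAM and ADAMTS proteinases. TIMP2 has a second role at the cell surface, where a complex of TIMP2 with the MMP14 proteinase holds the inactive form of MMP2 for cleavage into the active enzyme. RECK is a membrane-anchored inhibitor and, in brain endothelium, part of the receptor for WNT7 ligands. In the brain these proteins act on perineuronal nets, basement membranes, synaptic adhesion proteins and growth factor receptors. ADAMTS2 removes the amino-terminal propeptide of fibrillar procollagens and can also cleave reelin.

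The promoters of Timp2 and Adamts2 are shown because these are the members whose depletion groups did not overlap. Each covers the 250 bases before and the 50 bases after the start of the gene in RefSeq (GRCm38.p6), written 5′ to 3′ on the gene's own strand, with GC boxes (GGGCGG, either strand) in capitals. The Timp2 window lies at chr11:118355362-118355661 on the minus strand and the Adamts2 window at chr11:50601835-50602134 on the plus strand. In GENCODE M21 the Timp2 gene starts at 118355740, upstream of the Timp2 window. That window thus lies wholly within the gene as annotated there and does not cover the GENCODE start.
Timp2 promoter: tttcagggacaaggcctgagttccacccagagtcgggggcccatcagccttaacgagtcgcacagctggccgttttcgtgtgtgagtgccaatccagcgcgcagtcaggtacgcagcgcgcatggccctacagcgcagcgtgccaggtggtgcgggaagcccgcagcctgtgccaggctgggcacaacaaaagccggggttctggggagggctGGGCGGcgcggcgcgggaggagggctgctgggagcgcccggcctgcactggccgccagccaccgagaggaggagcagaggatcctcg
Adamts2 promoter: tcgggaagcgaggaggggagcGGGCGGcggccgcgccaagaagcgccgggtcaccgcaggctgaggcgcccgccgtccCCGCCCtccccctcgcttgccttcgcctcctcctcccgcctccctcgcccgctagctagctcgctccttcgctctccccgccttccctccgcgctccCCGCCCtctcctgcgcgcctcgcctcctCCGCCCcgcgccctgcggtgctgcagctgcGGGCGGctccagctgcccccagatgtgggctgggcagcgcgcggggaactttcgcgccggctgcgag
Both windows are rich in G and C. The Timp2 window is 68.7% G or C, above 88.5% of the 32851 promoters in the RefSeq table, and holds 1 GC box. The Adamts2 window is 77.3% G or C, above 97.8% of promoters, and holds 5 GC boxes. A GC box occurs in 35.7% of all promoters of this length, and 4 or more occur in 5.49%. The AP-1 motif TGANTCA, found in 7.81% of all promoters, and the letters TATAAA, found in 13.6%, occur in neither window, with both strands searched. The table holds promoters for 8 of the 10 members, all except Mmp16 and Mmp17. AP-1 motifs and TATAAA numbered 0 in all 8 windows, and GC boxes numbered between 0 in Timp4 and 5 in Adamts2.

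Depth ran between 12361933 and 15055422 reads for aged T libraries, between 11232442 and 14911138 for young T libraries, between 9957822 and 12136146 for antibody libraries and between 11103024 and 14375029 for IgG2b libraries. Values are normalized counts, that is, reads divided by 1 size factor per library. Antibody replicate 5 stood apart from the rest of its experiment, at 57.3 on the first principal component, against -28.2 to -9.97 for the other 4 antibody libraries and -6.64 to 6.90 for IgG2b. The depletion differences of the 10 genes, the summed levels and the network medians are therefore also given without it. Markers of the hippocampal fields were present in every library, with sums of 4026 normalized counts or more. Neocortical markers were present too, with sums of 2077 or more. Choroid plexus markers varied widely, with sums of 2197 to 53231 in aged T and 2822 to 33761 in young T mice. These sums were 806 to 31513 with the antibody and 1992 to 26789 with IgG2b. T cell markers were close to 0 in all groups: the 6 markers summed to at most 4.50 normalized counts in any aged T library, 7.77 in any young T library, 12.3 in any antibody library and 8.59 in any IgG2b library.

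Per kilobase of exon, Timp2 was the most abundant of the 10 transcripts in both experiments. It averaged 1015 ± 246 normalized counts per kilobase over the 11 transfer libraries (SD) and 1026 ± 285 over the 10 depletion libraries. The next gene was Mmp17, a glycolipid-anchored metalloproteinase. All 11 transfer and all 10 depletion libraries held more Timp2 than any library of the same experiment held of Mmp17. In the depletion libraries the margin was narrow, with a lowest Timp2 value of 589.03 and a highest Mmp17 value of 588.37 per kilobase. Mmp17 averaged 507 ± 70.6 per kilobase in the transfer and 490 ± 89.9 in the depletion libraries. Timp3, an inhibitor that binds to the matrix and also blocks ADAM17 and several ADAMTS proteinases, came next with 385 ± 71.7 and 257 ± 73.6. Its range overlapped that of Mmp17 in both experiments. Mmp24, a metalloproteinase expressed mainly in the nervous system that cleaves N-cadherin, followed with 189 ± 13.9 and 149 ± 17.01. Its range lay wholly below that of Timp3 in the transfer libraries but overlapped it in the depletion libraries. Timp4, another secreted inhibitor, averaged 75.4 ± 16.9 and 77.5 ± 19.3, below Mmp24 in every library of both experiments.

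The remaining 5 genes formed a low group. In the transfer libraries Mmp15 averaged 53.5 ± 15.7 per kilobase, Mmp16 52.6 ± 7.29, Mmp14 42.8 ± 10.3, Reck 36.0 ± 10.2 and Adamts2 18.1 ± 6.95. Neighbours in this order had overlapping ranges. In the depletion libraries Mmp15 averaged 39.2 ± 5.92, Mmp14 36.3 ± 6.70, Mmp16 31.1 ± 4.98, Reck 24.8 ± 7.59 and Adamts2 18.1 ± 6.12, again with overlapping neighbours, while all of them lay below Timp4. The tables were scaled separately, so these levels set side by side do not compare the 2 experiments.

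**Figure D1:**
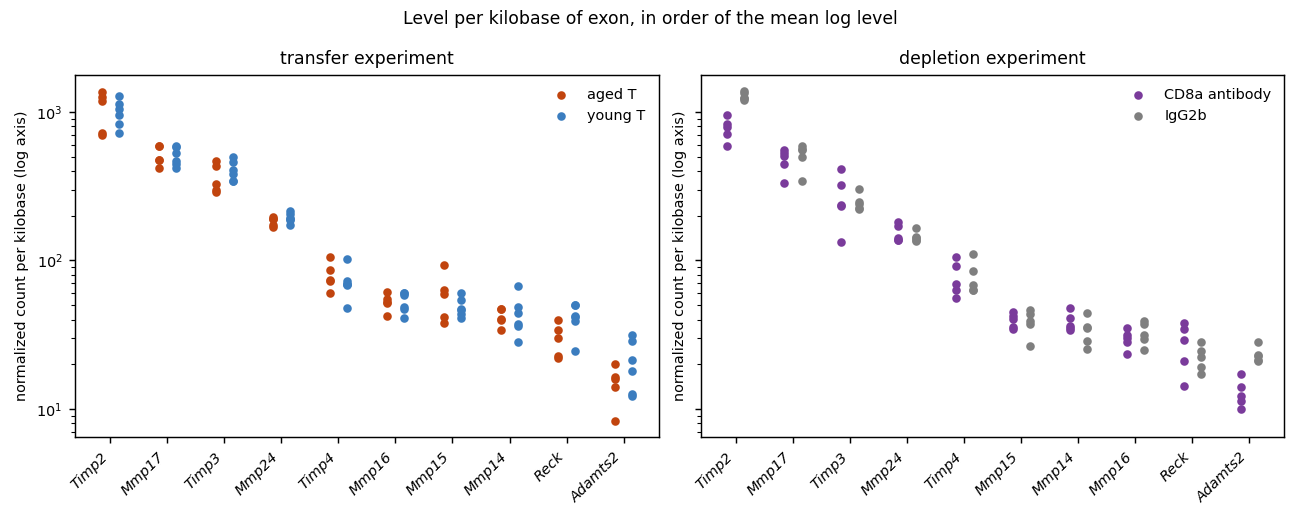
Normalized count per kilobase of exon (log axis) of the 10 genes in the 11 transfer libraries (left) and the 10 depletion libraries (right), each point 1 library, in order of mean log level. Timp2 lies highest in both panels (1015 per kilobase in the transfer and 1026 in the depletion libraries on average) and Adamts2 lowest (18.1 in both).

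In the depletion experiment, the transcripts of Timp2 and Adamts2 were lower with the CD8a antibody in every library, and those of the other 8 genes overlapped between groups. Timp2 had 2185, 3052, 2646, 2929 and 3538 normalized counts with the antibody, against 5127, 4608, 4945, 4446 and 4576 with IgG2b. The highest antibody value lay below the lowest IgG2b value. Timp2 averaged 2870 ± 501 with the antibody and 4740 ± 284 with IgG2b (SD, n = 5 each), a ratio of 0.599 and a log2 difference of -0.74 with a standard error of 0.12. Fold changes here are on the scale of log2(normalized count + 1). The IgG2b libraries were close together in Timp2, with a coefficient of variation of 5.99%, against 17.4% with the antibody. In a whole-tissue sample, fewer cells of a type and less RNA per cell cannot be told apart.

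Adamts2 had 88.6, 72.4, 124, 102 and 82.3 normalized counts with the antibody, against 152, 156, 207, 165 and 167 with IgG2b. Again the groups did not overlap. Its means were 93.9 ± 20.1 with the antibody and 169.5 ± 21.8 with IgG2b, a ratio of 0.550 and a log2 difference of -0.86 with a standard error of 0.16. These values rest on 65 to 121 reads per library with the antibody and 156 to 238 with IgG2b. Of all 13939 genes with a mean of at least 10 normalized counts, 1.27% had non-overlapping groups with the antibody lower, 0.782% with the antibody higher and 2.05% in either direction. The authors' deposited table gave Timp2 a log2 difference of -0.72 and Adamts2 one of -0.85, after turning its sign to antibody over IgG2b. It called both at an adjusted p under 0.05, as it did 0.656% of the genes it tested. Since the 10 genes were chosen with this contrast known, the count of 2 among them is not evidence about the group.

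Leaving out antibody replicate 5 gave a log2 difference of -0.82 for Timp2 and -0.82 for Adamts2. Other measures moved with the same contrast. A score of ventral minus dorsal hippocampal markers (the mean log2 level of Trhr, Coch and Nr2f2 minus that of Wfs1, Spink8 and Lct) was -3.18, -1.13, -2.32, -2.79 and -2.47 with the antibody and -1.34, -1.27, -1.28, -1.68 and -0.66 with IgG2b. With this score as a covariate, the difference of Timp2 was -0.59 with a standard error of 0.17 and that of Adamts2 was -1.01 with a standard error of 0.24. All 6 oligodendrocyte markers were higher on average with the antibody, with sums of 46806 to 90409 normalized counts against 43783 to 57760 with IgG2b. All 6 microglia markers were higher too, and their sums did not overlap, at 4645 to 5589 with the antibody against 3894 to 4374 with IgG2b. Of the 6 astrocyte markers 4 were higher, with sums of 22679 to 75961 with the antibody against 36801 to 47417 with IgG2b. Their median log2 difference was 0.12, with Gfap at 0.60 and Gjb6 the other way at -0.43. For neurons, 5 of 6 markers were lower, with sums of 55469 to 80270 with the antibody against 77682 to 86981 with IgG2b. Fibroblast markers summed to 1028 to 1747 with the antibody and 1666 to 2055 with IgG2b, with 6 of the 8 higher and the matrix proteoglycan Dcn lower by a log2 difference of -1.30. No marker of these 5 lists was at 0 in a whole experiment. The part of these cell markers in the 2 results was not tested.

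For the other 3 inhibitors the antibody and IgG2b libraries overlapped. Timp3 had 1106, 1938, 1514, 1116 and 626 normalized counts with the antibody and 1430, 1131, 1061, 1163 and 1047 with IgG2b, a log2 difference of 0.02 with a standard error of 0.23. Its highest and its lowest value in this experiment both came from antibody-treated mice. Without antibody replicate 5, the lowest, the difference was 0.25. Timp4 averaged 455 ± 123 with the antibody and 458 ± 119 with IgG2b, a log2 difference of -0.01, and of -0.09 without antibody replicate 5. Reck had 129, 167, 154, 92.7 and 63.7 normalized counts with the antibody and 99.3, 84.6, 126, 108 and 76.2 with IgG2b. Its log2 difference was 0.23 with a standard error of 0.25, and 0.44 without antibody replicate 5, the lowest library for Reck too.

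Among the membrane-type metalloproteinases, Mmp14, which cleaves collagen and activates MMP2, averaged 162 ± 23.9 with the antibody and 141 ± 30.3 with IgG2b. Mmp15 averaged 204 ± 22.2 with the antibody and 199 ± 39.7 with IgG2b. Mmp16 ran between 118 and 175 normalized counts with the antibody and between 125 and 196 with IgG2b. Mmp17 had 3377, 2123, 3249, 2857 and 3536 normalized counts with the antibody, against 2213, 3200, 3617, 3541 and 3779 with IgG2b. All 5 antibody libraries lay below the IgG2b median of Mmp17, but IgG2b replicate 1 was lower than 4 of them. Mmp24 averaged 662 ± 91.2 with the antibody and 624 ± 53.3 with IgG2b. The log2 differences of these 5 proteinases ran between -0.13 for Mmp16 and 0.22 for Mmp14, with standard errors of 0.11 to 0.16. Without antibody replicate 5 the difference was 0.26 for Mmp14, 0.09 for Mmp15 (0.06 with it), -0.04 for Mmp16, -0.17 for Mmp17 (-0.11 with it) and 0.12 for Mmp24 (0.08 with it). The median log2 difference of all 10 genes was 0.0047, against -0.0020 over all 13939 genes. Of the 10 genes 5 were lower and 5 higher, and of all genes 50.4% were lower.

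**Figure D2:**
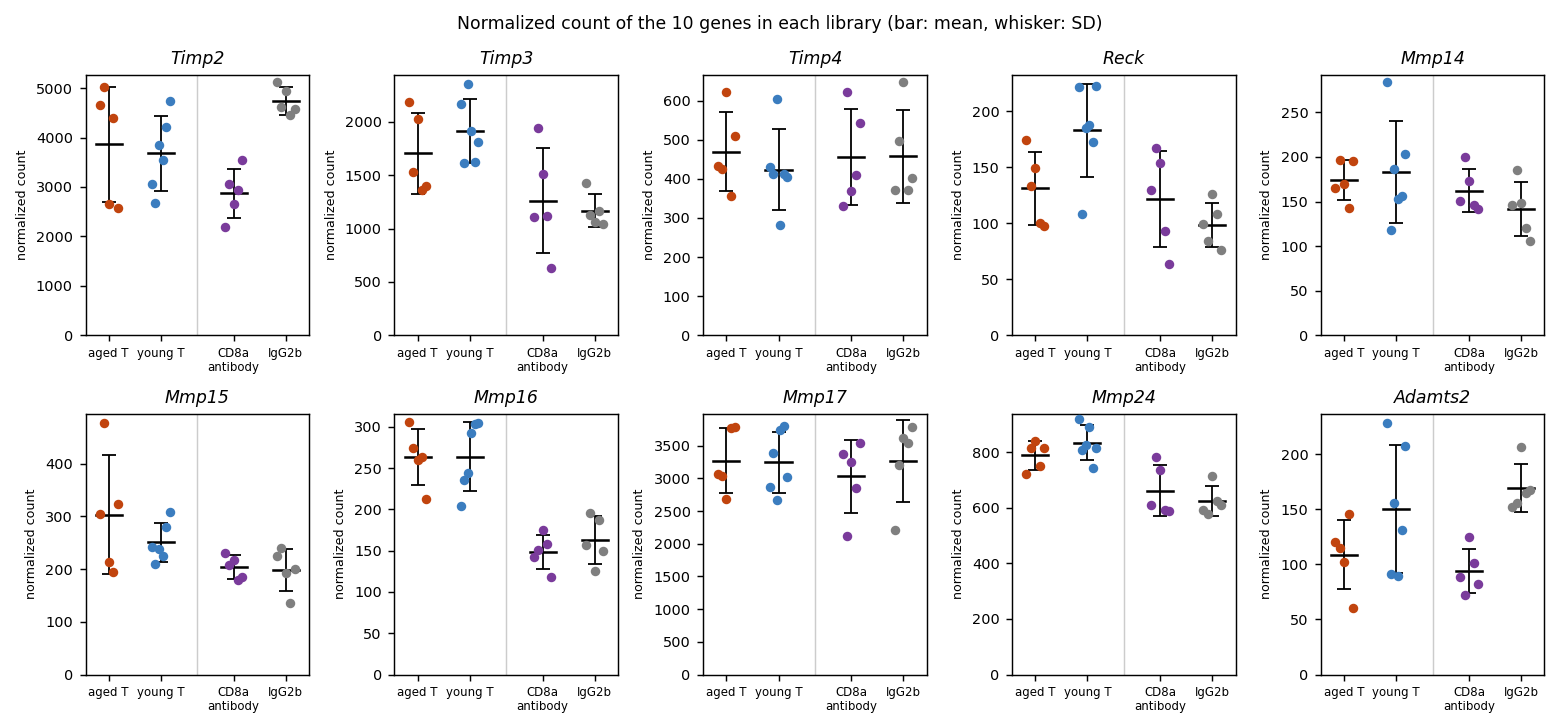
Normalized count of each of the 10 genes by library, with the group mean (bar) and SD (whisker), for aged T (n = 5), young T (n = 6), CD8a antibody (n = 5) and IgG2b (n = 5). Timp2 and Adamts2 separate in the antibody and IgG2b columns, with Timp2 means of 2870 with the antibody against 4740 with IgG2b and Adamts2 means of 93.9 with the antibody against 169.5 with IgG2b, while the aged T and young T columns overlap in all 10 panels.

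Summed per kilobase, the 4 inhibitors reached 1145 ± 168 with the antibody and 1625 ± 104 with IgG2b, and the 5 membrane-type metalloproteinases 733 ± 72.5 with the antibody and 759 ± 96.8 with IgG2b. The ratio of these sums was 1.59 ± 0.38 with the antibody and 2.19 ± 0.46 with IgG2b. Its ranges overlapped, at 1.17 to 2.18 with the antibody and 1.87 to 2.99 with IgG2b. Timp2 made up 67.7 ± 7.94% of the inhibitor sum with the antibody and 78.7 ± 0.81% with IgG2b. Without antibody replicate 5 the antibody mean of the ratio was 1.602 ± 0.432 and that of the Timp2 share 64.6 ± 4.59% (n = 4). These sums describe transcripts and contain Timp2, so they carry the difference for which it was chosen.

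In the transfer experiment, no difference between aged T and young T mice in the 10 genes passed the test. limma called 0 of the 10 at an adjusted p under 0.05, and its count over all 14162 genes was also 0 (0.00%). edgeR and DESeq2 run on the recovered reads likewise called 0 of the 10, and 0 of all 14229 genes (edgeR) and 18323 genes (DESeq2). At an unadjusted p under 0.05, 1 of the 10 was found (Reck), beside 8.25% of all genes. The groups overlapped for all 10, as they did for nearly all genes: 0.699% of all genes had non-overlapping groups in either direction. The median log2 difference of the 10 was -0.013, with 5 lower and 5 higher, against -0.0045 over all genes, of which 51.0% were lower.

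Timp2 had 4663, 5021, 2663, 4389 and 2575 normalized counts in aged T mice, and a lowest, median and highest value of 2679, 3696 and 4745 in young T mice. Both the highest and the lowest of the 11 values belonged to aged T mice, whose coefficient of variation was 29.96%. Timp2 averaged 3862 ± 1157 in aged T and 3681 ± 756 in young T mice. The log2 difference was 0.04 with a 95% interval of -0.36 to 0.44 (limma adjusted p = 0.966). Its sign turned when aged T replicate 1, 2 or 4 or young T replicate 1 or 2 was left out, within a range of -0.07 to 0.17. The whole interval lay above the depletion estimate of -0.74, but the 2 experiments differ in host age and treatment and were not tested against each other.

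Reck had the smallest p of the 10. It had 175, 134, 150, 100 and 97.8 normalized counts in aged T mice and a lowest, median and highest value of 108, 187 and 223 in young T mice. All 5 aged T values lay below the young T median, although the lowest young T value lay below 3 of them. Reck averaged 131 ± 32.9 in aged T mice and 183 ± 41.8 in young T mice, a log2 difference of -0.48 with a 95% interval of -0.89 to -0.06. It did not pass (limma adjusted p = 0.60). Leaving out single libraries gave -0.62 to -0.38.

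Adamts2 had 120, 115, 102, 146 and 60.7 normalized counts in aged T mice and a lowest, median and highest value of 89.5, 143 and 228 in young T mice. Its log2 difference was -0.43 with a 95% interval of -0.995 to 0.14 (limma adjusted p = 0.657), and 4 of the 5 aged T values lay below the young T median. Without aged T replicate 5, the lowest library, the difference was -0.23. The interval of Adamts2 held the depletion estimate of -0.86. For this gene the transfer libraries cannot tell a difference of that size from none.

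Timp3 averaged 1703 ± 380 in aged T and 1915 ± 299 in young T mice, and Timp4 averaged 469 ± 101 in aged T and 424 ± 103 in young T mice. Neither passed, with a log2 difference of -0.18 for Timp3 (95% interval -0.47 to 0.11, limma adjusted p = 0.702) and of 0.16 for Timp4 (-0.20 to 0.51, limma adjusted p = 0.798). Mmp15 spanned 194 to 478 normalized counts in aged T mice and 210 to 309 in young T mice, with a log2 difference of 0.21 (-0.20 to 0.62, limma adjusted p = 0.756). The highest Mmp15 value came from aged T replicate 2, which also had the highest Timp2 value.

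Mmp14, Mmp16, Mmp17 and Mmp24 differed by -0.08 to 0.01 on the log2 scale. The narrowest interval was that of Mmp24, at -0.25 to 0.09 (limma adjusted p = 0.772), with 789 ± 50.9 normalized counts in aged T and 834 ± 63.3 in young T mice. Mmp17 averaged 3271 ± 491 in aged T and 3244 ± 466 in young T mice, with an interval of -0.23 to 0.26. The interval was -0.27 to 0.28 for Mmp16 and -0.42 to 0.36 for Mmp14. The inhibitor to proteinase ratio came to 1.80 ± 0.42 in aged T and 1.80 ± 0.33 in young T mice, and Timp2 made up 67.9 ± 8.69% of the inhibitor sum in aged T and 65.3 ± 5.42% in young T mice.

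**Figure D3:**
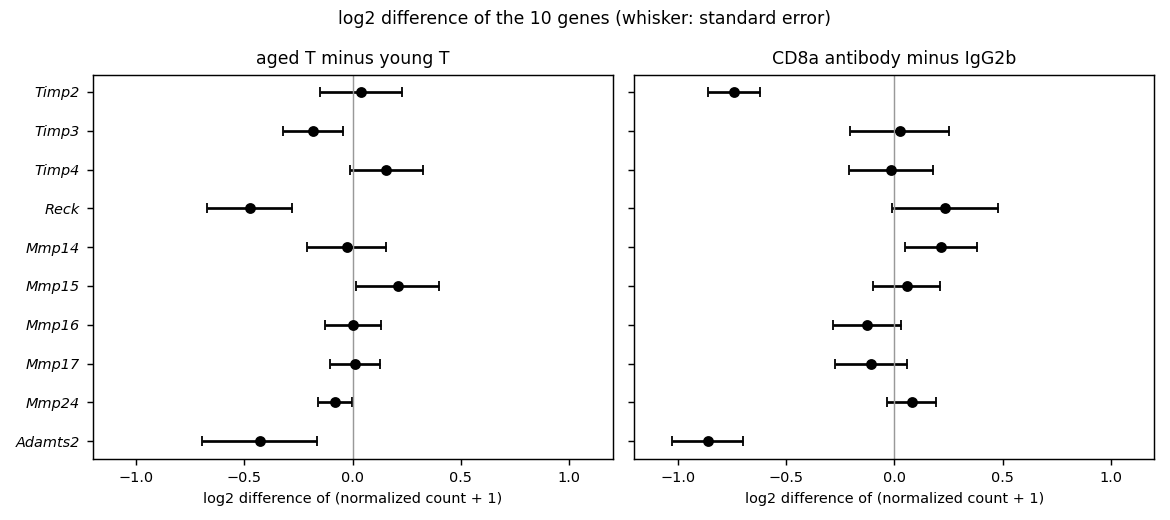
Log2 difference of the 10 genes for aged T minus young T (left) and CD8a antibody minus IgG2b (right), with whiskers of 1 standard error. Timp2 and Adamts2 stand at -0.74 and -0.86 on the right, and on the left the lowest values are those of Reck (-0.48) and Adamts2 (-0.43).

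Within groups, 2 pairs of genes varied together across the 21 libraries: Timp3 with Reck, and Timp3 in the opposite sense with Mmp17. Each library was expressed as its deviation from its own group mean on the log2 scale, which removes the contrasts between groups, and 47 pairs were correlated. Permutations were drawn within groups. They compare each pair with no correlation, not with the correlations of other genes in the same libraries. The share of all genes correlating with Timp3 as strongly as Reck or Mmp17 was not computed. Whether these 2 pairs stand apart from genes at large was therefore not tested. Timp3 and Reck, the matrix-bound and the membrane-bound inhibitor, had r = 0.79 (permutation p = 0.00044, adjusted p = 0.0103) and rho = 0.75 (permutation p = 0.00109, adjusted p = 0.0256). The correlation was 0.75 in the transfer and 0.82 in the depletion libraries. It was 0.65 without antibody replicates 5 and 2, the 2 libraries farthest in Timp3, and 0.70 without antibody replicate 5 alone.

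Timp3 and Mmp17 had r = -0.72 (permutation p = 0.00044, adjusted p = 0.0103) and rho = -0.74 (permutation p = 0.00081, adjusted p = 0.0256). The correlation was -0.78 in the transfer libraries, -0.69 in the depletion libraries and -0.66 without the 2 farthest libraries. Libraries rich in Timp3 were thus also rich in Reck and poor in Mmp17, within each experiment. A choroid plexus score, the mean log2 level of 6 choroid plexus markers, had an r with Timp3 of 0.88 in the depletion and 0.06 in the transfer libraries. For Reck these were 0.77 in the depletion and -0.02 in the transfer libraries, and for Mmp17 -0.62 in the depletion and 0.13 in the transfer libraries. Over all 21 libraries its r with Timp3 was 0.55 (rho = 0.45, permutation p adjusted over 3 genes 0.124 and 0.253), and 0.30 without the 2 libraries farthest in the score (antibody replicate 5 and aged T replicate 4). For Reck r was 0.40 (rho = 0.26, permutation p adjusted to 0.199 and 0.317), and for Mmp17 -0.29 (rho = -0.25, permutation p adjusted to 0.237 and 0.317). With the score removed from the deviations, an alternative added after the data were seen, the r of Timp3 with Reck was 0.74 (0.79 in the transfer and 0.66 in the depletion libraries). That of Timp3 with Mmp17 was then -0.70 (-0.84 in the transfer and -0.55 in the depletion libraries). Of the other 45 pairs, 0 passed after adjustment. By the adjusted p of r, the nearest were Reck with Mmp14 (0.53) and Timp2 with the ventral minus dorsal score (0.62), both at a permutation p adjusted to 0.164. By the adjusted p of rho, the nearest was Mmp14 with Mmp15 (0.58, permutation p adjusted to 0.154). For Timp2 and the score the correlation was 0.71 in the transfer and 0.40 in the depletion libraries. Between Timp2 and the other inhibitors r was -0.09 for Timp3, -0.03 for Timp4 and 0.11 for Reck. In the transfer libraries these were 0.01, -0.37 and 0.42, and in the depletion libraries -0.27, 0.63 and -0.43, with opposite signs for each.

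**Figure D4:**
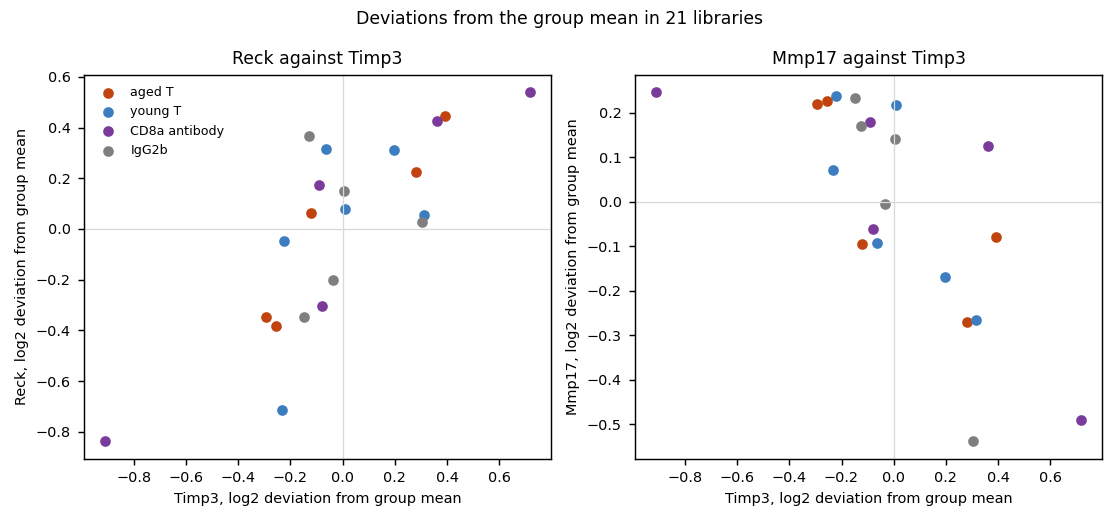
Deviation of each of the 21 libraries from its group mean, on the log2 scale, for Reck (left, vertical axis) and Mmp17 (right, vertical axis) against Timp3 (horizontal axis), coloured by group. Reck runs upward with Timp3 (r = 0.79) and Mmp17 runs downward (r = -0.72), and the library at the far left and the one at the far right are antibody replicates 5 and 2.

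The promoters of the co-varying inhibitors Timp3 (chr10:86300162-86300461, plus strand) and Reck (chr4:43875280-43875579, plus strand) are shown with the same marking, since their transcripts moved together.
Timp3 promoter: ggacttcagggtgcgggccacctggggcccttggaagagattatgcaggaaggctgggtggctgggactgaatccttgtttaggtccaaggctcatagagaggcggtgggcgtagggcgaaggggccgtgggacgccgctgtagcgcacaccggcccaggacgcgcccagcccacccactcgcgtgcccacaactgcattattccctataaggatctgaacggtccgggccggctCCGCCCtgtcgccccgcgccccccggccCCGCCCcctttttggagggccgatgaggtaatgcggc
Reck promoter: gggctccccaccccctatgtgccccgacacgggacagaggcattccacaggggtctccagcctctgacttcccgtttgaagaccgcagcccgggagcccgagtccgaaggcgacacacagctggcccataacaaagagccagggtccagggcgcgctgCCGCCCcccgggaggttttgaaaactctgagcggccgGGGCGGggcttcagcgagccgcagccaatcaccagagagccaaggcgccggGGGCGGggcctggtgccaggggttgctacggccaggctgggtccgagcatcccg
Timp3 holds 2 GC boxes in a window of 67.0% G or C and Reck holds 3 in a window of 69.3%. Neither holds the AP-1 letters or TATAAA. These features do not set the pair apart from the other members, since Mmp14 also holds 2 GC boxes and Mmp24 also holds 3.

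The genes most like Timp2 across the 21 deviations lay outside the proteinase network. Among 13048 named genes tested in both experiments, the highest correlations were those of Dlk1, a membrane protein related to the Notch ligands (r = 0.88, rho = 0.87), Sstr1, a somatostatin receptor (r = 0.84, rho = 0.80), and Celf6, an RNA-binding splicing regulator (r = 0.83, rho = 0.74). Cacna1g, a low-voltage-activated calcium channel, followed with r = 0.83 and rho = 0.88, and Wdr6 with r = 0.82 and rho = 0.80. The lowest were those of the diacylglycerol kinase Dgkz (r = -0.79) and the kinase Mknk1 (r = -0.77). Without aged T replicates 5 and 3, the farthest libraries in Timp2, the correlations named here ran between 0.74 and 0.84 for the positive genes and were -0.78 for Dgkz and -0.76 for Mknk1. They are the extremes of a ranking, share the same libraries and depth, and are given with no p. Of the members, Adamts2 ranked highest by r over the 21 deviations, 545th of 13048 with r = 0.41. By rho it had 0.27, below Mmp16 with 0.29. The r of Adamts2 was 0.54 in the transfer and -0.25 in the depletion libraries. Without the 2 farthest libraries it was 0.27, below Mmp15 with 0.31. In the depletion experiment the log2 difference of Dlk1 was -1.18, that of Sstr1 -0.96, and those of Celf6, Cacna1g and Wdr6 -0.48, -0.25 and -0.34. In the transfer experiment the differences were 0.58 for Dlk1, 0.02 for Sstr1, 0.17 for Celf6, -0.34 for Cacna1g and 0.15 for Wdr6.

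The 10 genes include 7 that overlap another annotated gene, and 3 of these overlap a gene of the opposite strand that is in the tables. This bears on how reads were assigned, because the libraries are strand-specific but the strand setting of the counting is not given in the sources used here. Timp3 (chromosome 10, 86300372 to 86349506, mm10, GENCODE M21) lies within Syn3, a synapsin gene on the opposite strand, with 0 shared exon bases. Timp4 (chromosome 6, 115241892 to 115252205) lies within Syn2, another synapsin gene on the opposite strand, and shares 90 exon bases with it, 1.53% of its own. Mmp24 (chromosome 2, 155775342 to 155818366) shares 637 exon bases, 14.8% of its own, with BC029722 on the opposite strand, which was at 793 ± 154 normalized counts with the antibody and 847 ± 78.5 with IgG2b, and at 803 ± 30.7 in aged T and 773 ± 64.2 in young T mice. Syn2 was at 9000 ± 783 normalized counts with the antibody and 10176 ± 926 with IgG2b, and at 9789 ± 1109 in aged T and 10040 ± 1633 in young T mice. Syn3 was at 318 ± 101 with the antibody and 322 ± 46.9 with IgG2b, and at 452 ± 64.8 in aged T and 544 ± 84.5 in young T mice. Timp2 (chromosome 11, 118301069 to 118355740) shares 0 exon bases with Cep295nl, which lies within it on the same strand and is not analysed here. Adamts2 (chromosome 11, 50602084 to 50807573) shares 0 exon bases with the 3 predicted genes that overlap it, and Reck and Mmp16 share 0 with the 1 that overlaps each.

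The wider network was described with 98 other genes in 7 lists. In the transfer experiment limma called 0 of the 79 tested (0.00% of all genes were called), as did edgeR and DESeq2, and the smallest adjusted p was 0.60. At an unadjusted p under 0.05, 12 were lower and 0 higher in aged T mice, against 3.96% and 4.29% of all genes. On average 62 were lower and 17 higher, with a median log2 difference of -0.12 against -0.0045 over all genes. Long transcripts lay lower in this comparison (Spearman rho = -0.50 over 14078 genes, which are not independent), and the list genes were long, with a median of 5302 exon bases against 3451 over all tested genes. With the length trend subtracted, the median of the network was -0.06 and 50 of 79 were lower.

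In the depletion experiment limma called 0 of 78 (0.00717% of all genes were called), and the smallest adjusted p was 0.311. edgeR and DESeq2 also called 0 of the 78, where edgeR called 1 of 13906 genes and DESeq2 92 of 14024. At an unadjusted p under 0.05, 5 were higher and 7 lower with the antibody, against 4.31% and 4.15% of all genes (8.47% in either direction). There were 41 higher and 37 lower on average and a median of 0.07 against -0.0020 over all genes. Without antibody replicate 5, 19 were higher and 6 lower at an unadjusted p under 0.05, and the median was 0.13. The share of all genes under that threshold without this library was not computed. Genes called by limma in the whole experiment numbered 25 without it and 1 with it, so these counts are not a result about the network. With the length trend subtracted (rho = -0.30 over 13861 genes) the median was 0.14 and 32 of 78 were lower, and with the choroid plexus score as a covariate it was -0.02. The genes named below are the 2 with the smallest p of each list and experiment, and a few that were set to be given in any case. None of them passed.

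The secreted inhibitors and clearance proteins had a median log2 difference of -0.11 in the transfer and 0.13 in the depletion experiment, over 10 tested genes. Lrp1, the endocytic receptor that clears TIMP and MMP complexes, was at 3708 ± 427 normalized counts in aged T and 4899 ± 514 in young T mice, a difference of -0.40 (limma adjusted p = 0.60). Lrp1 was at 3327 ± 773 with the antibody and 3342 ± 355 with IgG2b. Efemp1, a matrix glycoprotein that binds TIMP3, had -0.51 in the transfer experiment. In the depletion experiment Spock2, a matrix proteoglycan, had -0.29 and Itga3, the integrin subunit through which TIMP2 acts on endothelial cells, had -0.32. Timp1, the remaining TIMP gene, was near its detection limit, with means of 7.23 ± 5.62 with the antibody and 2.84 ± 2.13 with IgG2b, and of 1.502 ± 2.89 in aged T and 4.07 ± 7.57 in young T mice.

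The list of other matrix metalloproteinases holds 16 genes, among them Furin, which is not a matrix metalloproteinase. Of the 16 genes 6 were tested. Furin was tested in the transfer experiment, with means of 485 normalized counts in aged T and 489 in young T mice. The metalloproteinases of this list were scarce, and Mmp7, Mmp10 and Mmp27 were at 0 in all libraries. Mmp2, the proteinase that TIMP2 and MMP14 activate, averaged 36.0 ± 9.49 normalized counts with the antibody and 28.6 ± 8.50 with IgG2b, and 46.0 ± 16.6 in aged T and 47.3 ± 29.8 in young T mice. Mmp9, the other gelatinase, averaged 23.0 ± 12.2 with the antibody and 18.1 ± 7.93 with IgG2b. In aged T mice Mmp9 was at 14.2 ± 5.12 and in young T mice at 35.6 ± 44.7, with 126 in young T replicate 1. Mmp11 had a log2 difference of -0.10 in the transfer experiment and Mmp28 one of 0.63 in the depletion experiment.

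Of the relatives of Adamts2, 20 were tested in the transfer and 19 in the depletion experiment, with medians of -0.23 and 0.20. Adamts17 had a difference of -0.60 and Adamts10, which binds fibrillin, one of -0.72 in the transfer experiment. Adamts14, the closest relative of Adamts2 among the procollagen proteinases, had -1.71 in the depletion experiment, at 5.58 ± 3.94 with the antibody and 22.7 ± 15.02 with IgG2b, which is few reads per library. Adamtsl4 had 0.81 there. The 10 tested ADAM genes were all lower on average in aged T mice, with a median of -0.12. By p the first were Adam8 (-0.80) and Adam15 (-0.12). In the depletion experiment their median was -0.13, with Adam19 at -0.45 and Adam22 at -0.35.

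The procollagens and their processing enzymes, on which ADAMTS2 acts, had opposite medians, -0.72 in the transfer and 0.59 in the depletion experiment, over 11 genes each. In the transfer experiment Fbn1, the fibrillin that builds microfibrils, had -0.47 and the collagen gene Col5a2 had -1.02. With the antibody, Bmp1, the proteinase that removes the carboxy-terminal propeptide, had 0.59, and Pcolce2, an enhancer of that cleavage, had 0.62. The summed level of this list was 1072 to 1711 normalized counts in aged T mice (median 1467) and 1334 to 5985 in young T mice (median 1999). It was 787 to 1280 with the antibody (median 1149) and 602 to 849 with IgG2b (median 740). The median log2 difference of this list without the highest young T library was not computed. Fibroblast markers moved with the procollagen list in the transfer experiment, with all 8 lower. Their sums were 1212 to 2862 in aged T mice (median 1870) and 1551 to 5838 in young T mice (median 2353). Col1a1 and Col1a2 belong to both lists, so the lists move together in part by construction. Pericyte and smooth muscle markers had medians of -0.50 in the transfer and 0.54 in the depletion experiment, and their part in the collagen values was not tested.

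Of the 16 brain matrix substrates, Reln had a log2 difference of -0.40 in the transfer and -0.54 in the depletion experiment. Reelin, its product, is cleaved by ADAMTS proteinases. Cspg4, a proteoglycan of oligodendrocyte precursors and pericytes, had -0.29 in the transfer experiment, and Cdh2, which encodes N-cadherin, had -0.31 in the depletion experiment. Medians of the list were -0.13 in both, and 0.02 in the depletion experiment without antibody replicate 5. The 6 partners of RECK in WNT7 signalling had medians of -0.01 in the transfer and -0.16 in the depletion experiment. Without antibody replicate 5 the depletion median was -0.05 for these partners, -0.05 for the ADAM genes and 0.17 for the list of other metalloproteinases with Furin. It was 0.19 for the secreted inhibitors, 0.22 for the ADAMTS relatives and 0.67 for the procollagen list. Lrp6 had -0.11 and Adgra2 had 0.10 in the transfer experiment, and Adgra2 had -0.26 and Wnt7b -0.23 in the depletion experiment.

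**Figure D5:**
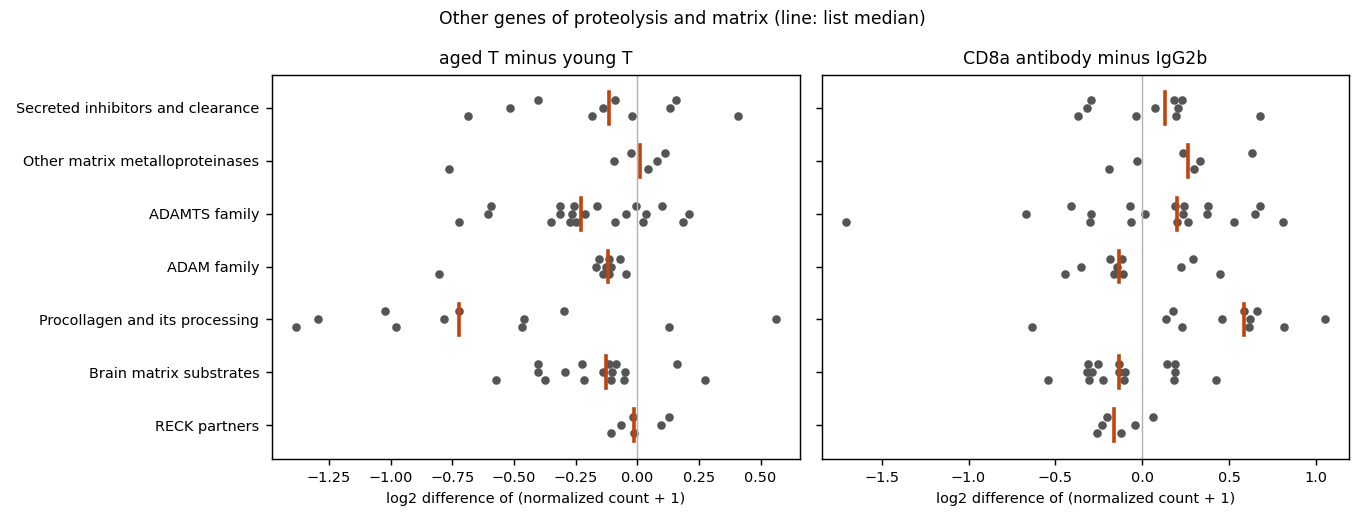
Log2 differences of the tested genes of the 7 lists of the wider network, each point 1 gene and each line the list median, for aged T minus young T (left) and CD8a antibody minus IgG2b (right). The procollagen list lies lowest on the left (median -0.72) and highest on the right (median 0.59), and none of the genes shown passed the test.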

How the data were processed

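The deposited tables, 1 per experiment, were used as they stand. Per the submitters' processing notes, STAR, RSEM, DESeq2 and mm10 were used, without versions. Library columns hold a signal per the file headers: reads of the gene over a library's size factor (whole reads were recovered at a relative tolerance of 1e-06). The authors' deposited tables also give log2 fold changes, a test score and p-values of a DESeq2 comparison, with the sign turned here to treated over control.

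limma-trend (limma 3.58.1, R 4.3.3) was fitted to log2(normalized count + 1) for genes with a mean of at least 10, each experiment alone, with Benjamini-Hochberg adjustment over all genes. It replaced edgeR, which had been set for plain counts. edgeR 4.0.16 and DESeq2 1.42.0 were run on the recovered reads, and limma was tested on simulated data. Other alternatives were a pseudocount of 5, no filter, TMM scaling, covariates for ventral minus dorsal and choroid plexus markers, subtraction of a length trend, and leaving out each library. Correlations of deviations from group means used 100000 permutations within groups, two-sided. Those with the choroid plexus score, and list medians and ratios without antibody replicate 5, were added after the data were seen. Exon lengths from GENCODE M21 were found for 24053 of 24411 symbols (98.5%). Promoters came from RefSeq (GRCm38.p6). The log scale understates changes of weakly expressed genes.

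Replicates were numbered within groups in the order of the records, so numbers pair no samples. Members and lists were chosen with earlier results of these data known. Named genes are all members, the 2 with the smallest p in each list and experiment, a fixed set (Timp1, Mmp2, Mmp9, Lrp1, Syn2, Syn3, Cep295nl), and the 5 most and 3 least like Timp2, of which 1 is not reported here. BC029722, Dcn, Gfap, Gjb6 and Furin were named after their values were seen.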

Additional observations from a re-analysis of the deposited data

Results flagged for a closer look

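In Adamts2, IgG2b replicate 3 lay far above the other 4 IgG2b libraries. It had 207 normalized counts, against 167 for the nearest and 152 for the lowest of the others, a gap of 0.716 of the whole range of the group. Of 40 groups of libraries looked at (10 genes in 4 groups) it was the only one so placed, and about 1 in 20 such groups is marked by chance. The antibody values of Adamts2 lay below those of all 5 IgG2b libraries.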

How the results depend on the processing

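No paired analysis was possible because the groups share no replicate numbers in the labels. Across all alternatives run, limma, edgeR and DESeq2 called 0 of the 10 genes in the transfer experiment and 0 of the tested network genes in either experiment. The transfer runs called 0 of all genes as well. The depletion difference of Timp2 ran from -0.82 to -0.65 when single libraries were left out and was -0.59 with the ventral minus dorsal covariate, and that of Adamts2 ran from -0.97 to -0.77. In the transfer experiment 4 differences close to 0 changed sign. Timp2 did so only when single libraries were left out (-0.0709 to 0.170). Mmp14 (-0.03) became 0.0112 with the ventral minus dorsal covariate, 0.0038 with the length trend subtracted, and -0.143 to 0.109 without single libraries. Mmp16 (0.0027) became -0.0017 in edgeR, -0.0043 in DESeq2, and -0.0683 to 0.0768 without single libraries. Mmp17 (0.01) became -0.0230 with the ventral minus dorsal covariate, and -0.0454 to 0.0789 without single libraries. With that covariate, the depletion differences became 0.41 for Timp3, 0.36 for Timp4, 0.42 for Reck, 0.36 for Mmp14, 0.13 for Mmp15, -0.15 for Mmp16, -0.35 for Mmp17 and 0.26 for Mmp24. Depletion differences close to 0 also changed sign when single libraries were left out, that of Timp3 between -0.16 and 0.25, of Timp4 between -0.14 and 0.12, of Mmp15 between -0.07 and 0.13 and of Mmp17 between -0.24 and 0.01. With the choroid plexus covariate that of Timp3 was -0.12 and that of Timp4 0.03. The cause of these changes was not tested. Genes called in the whole depletion table numbered 1 in limma, 92 in DESeq2 and 25 in limma without antibody replicate 5. Genes with a mean below 10 normalized counts were too low to be tested. Among them were Timp1 and 10 of the 16 genes in the list of other metalloproteinases with Furin.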
